A study of Mus musculus with 11 samples.

Results

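Glucose uptake and glycolysis were followed through 10 genes, which are 10 of the 32469 gene symbols in a count table of bulk RNA-seq from tumor-infiltrating CD8+ T cells. The genes were chosen by name, with no threshold on a measured value: the glucose transporter genes Slc2a1 and Slc2a3, the hexokinase gene Hk1, and Aldoa, Gapdh, Pgk1, Pgam1, Eno1, Pkm and Ldha, which encode enzymes between the cleavage of the hexose and the formation of lactate. All mice were wild-type female C57BL/6 animals, 8 weeks old, that carried Lewis lung carcinoma (LLC), a lung carcinoma cell line of that strain, under the skin of both flanks. An untreated group of 5 mice was compared with 6 mice injected intraperitoneally with 200 µg of anti-LAG-3 (clone C9B7W), an antibody against an inhibitory receptor of exhausted T cells, on days 14 and 16 of tumor growth. The study's methods give days 14 and 18 for tumor excision in the bulk RNA-seq experiment, where the deposited description gives days 14 and 21. Each library held precursor exhausted cells of 1 mouse, sorted with a gate that included CD8+PD-1+Ly108+TIM-3-, and the libraries are numbered 1 to 5 in the untreated and 6 to 11 in the anti-LAG-3 group.

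Glycolysis splits glucose into pyruvate in the cytosol. The GLUT transporters let glucose into the cell, a hexokinase traps it by phosphorylation, and the enzymes from aldolase to pyruvate kinase yield ATP, with GAPDH as the step that reduces NAD+ and lactate dehydrogenase as the step that restores it. Activated T cells are known to raise this route, and many of its genes are known targets of HIF-1 and MYC. Several of these transcripts have been copied back into the mouse genome many times as processed pseudogenes (retrocopies), Gapdh above all, so that reads of the parent gene and of its copies can be hard to tell apart.

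Total counts ranged from 317449 to 1271063 per library in the untreated group and between 313524 and 1901374 in the treated group, and the 10 genes held between 0.374% and 0.525% of them. A floor of 3 counts stood at 1.58 to 9.57 CPM of total counts, that is, counts scaled by the library's total, and the marker sums that follow are on that scale. All later CPM are counts scaled by the TMM-normalized library size. The markers of the sort were as labelled. The 5 genes of the CD8 T cell list (Cd8a, Cd8b1, Cd3d, Cd3e, Cd3g) summed to 4606 to 4886 CPM of total counts in untreated and 4626 to 5148 in anti-LAG-3 mice, while Cd4 and Foxp3 had at most 1 count in any library and Havcr2, which encodes TIM-3, at most 7. Slamf6, which encodes Ly108, had 26 to 188 counts per library. The 7 myeloid markers, all with a read somewhere, summed to 18.9 to 54.8 and 18.9 to 147, and the 4 epithelial markers that could come from tumor cells to 2.45 to 12.6 and 0 to 9.61, with Krt19 at 0 throughout. The myeloid sum of 147 was in library 10, from 46 counts. The part of these other cells in the values below was not tested. Cycling cell markers summed to 261 to 413 CPM of total counts in untreated and 179 to 385 in anti-LAG-3 mice.

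Because the table has rows for many of the retrocopies, the sequences are shown before the values. A 50-base stretch of the Gapdh coding sequence, bases 493 to 542 counted from the first base of the start codon, occurs on the same strand in transcripts of 80 other rows of the table, by the GENCODE M21 annotation of GRCm38, and no stretch of that coding sequence occurs in more.
Gapdh: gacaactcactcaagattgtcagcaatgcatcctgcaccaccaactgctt
Of the 1028 such stretches in the Gapdh coding sequence, 60 (5.84%) occur in no other row of the table, and the median stretch occurs in 40 other rows. In the coding sequences of Pgk1 and Pgam1 the percentage found in no other row was 0%, and for Eno1 it was 16.7%. The window with the most differences between Eno1, which encodes the main enolase of T cells, and its close copies is shown next, with capitals at the positions where the sequences are not all alike.
Eno1: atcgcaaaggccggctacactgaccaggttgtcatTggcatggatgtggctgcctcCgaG
Eno1b: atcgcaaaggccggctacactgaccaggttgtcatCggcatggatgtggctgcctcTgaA
Gm4735: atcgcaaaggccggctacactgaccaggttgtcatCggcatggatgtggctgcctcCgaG
These are coding bases 691 to 750. Over all 1302 coding bases, Eno1b differed from Eno1 at 8 bases and Gm4735 at 5. For Gapdh and the copies with the most reads the same kind of window, coding bases 380 to 439, held 1 variable base among the 4 genes.
Gapdh: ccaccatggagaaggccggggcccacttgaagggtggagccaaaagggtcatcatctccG
Gm7336: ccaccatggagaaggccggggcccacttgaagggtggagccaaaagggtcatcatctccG
Gm12070: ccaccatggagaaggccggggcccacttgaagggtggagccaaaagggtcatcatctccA
Gm12033: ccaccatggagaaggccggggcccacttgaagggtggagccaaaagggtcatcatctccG

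The retrocopy rows held a large part of the reads. For each gene, table rows were pooled whose transcripts carry at least 1% of the gene's distinct 50-base stretches. The Gapdh row held 11095 counts over the 11 libraries, while the 114 rows that share its sequence, 108 of them annotated as pseudogenes, held 23649 counts. That was 68.1% of the pooled count, and it stayed within 66.5% to 70.4% from library to library. The share was 67.6% ± 1.11 (SD, n = 5) in untreated and 68.7% ± 1.27 (SD, n = 6) in treated mice. The 10 rows that carry 900 or more of the Gapdh stretches had between 1173 and 1457 counts each, led by Gm7336 with 1457, Gm12070 with 1269 and Gm12033 with 1264. The 60 rows with 100 or more but fewer than 500 stretches had a median of 22 counts. Rows with more shared sequence tended to hold more counts.

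**Figure D1:**
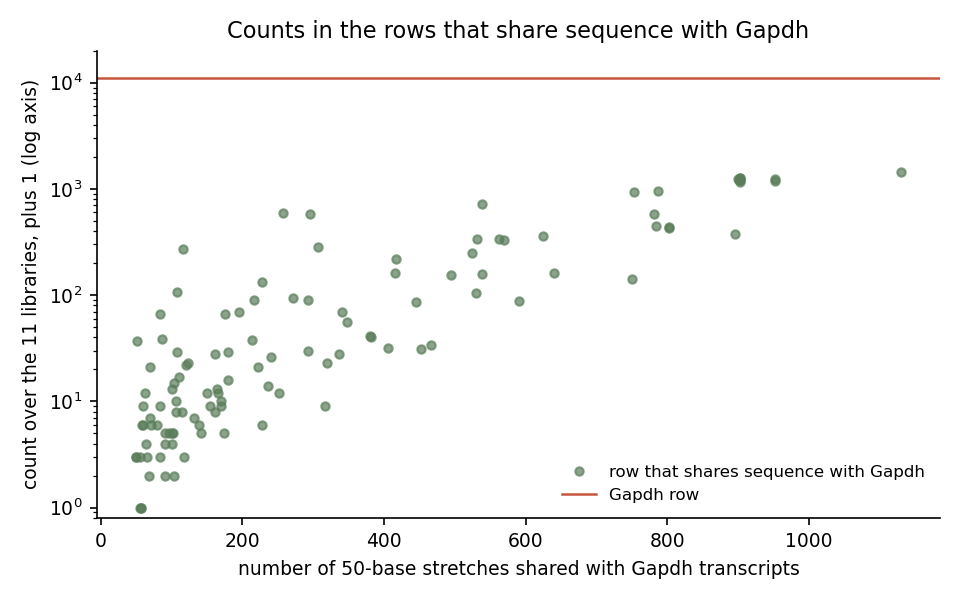
Each point is a row of the count table that shares at least 1% of the 50-base stretches of Gapdh. The horizontal axis gives the number of stretches shared and the vertical axis the count summed over the 11 libraries plus 1, on a log scale, with the Gapdh row itself as a line. The 10 rows furthest to the right hold 1173 to 1457 counts each, below the 11095 of Gapdh.

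Eno1 was the next case. Its own row held 4793 counts and its sharing rows 3309, almost all in Eno1b (2313 counts), annotated as protein-coding, and Gm4735 (989 counts). For Pgk1, which encodes phosphoglycerate kinase, the own row held 2002 counts, and the copies Pgk1-rs7 and Gm5537, with no mismatch to it over the 1250 or 1251 coding bases aligned, held 600 counts each. For Pgam1, phosphoglycerate mutase, the copy Pgam1-ps2 had no mismatch over all 762 coding bases and held 845 counts beside 2113 in the own row. For the remaining genes the sharing rows weighed less. They held 2.13% of the pooled count for Pkm (mostly Gm6560 with 102 counts), 0.952% for Ldha, 0.0796% for Aldoa and 0% for Slc2a1, whose only such row, Gm12868, had 0 counts. No row reached the 1% limit for Slc2a3, although 155 rows share smaller parts of its sequence, so its value of 0% follows from the limit. For Hk1 the only such row was the antisense gene Hk1os, with 20 counts beside 476, and since the use of strand in the counting is not given in the sources used here, reads of the pair cannot be told apart. Counts of Gapdh, Eno1, Pgk1 and Pgam1 are therefore uncertain, and each is given below also with its sharing rows added.

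**Figure D2:**
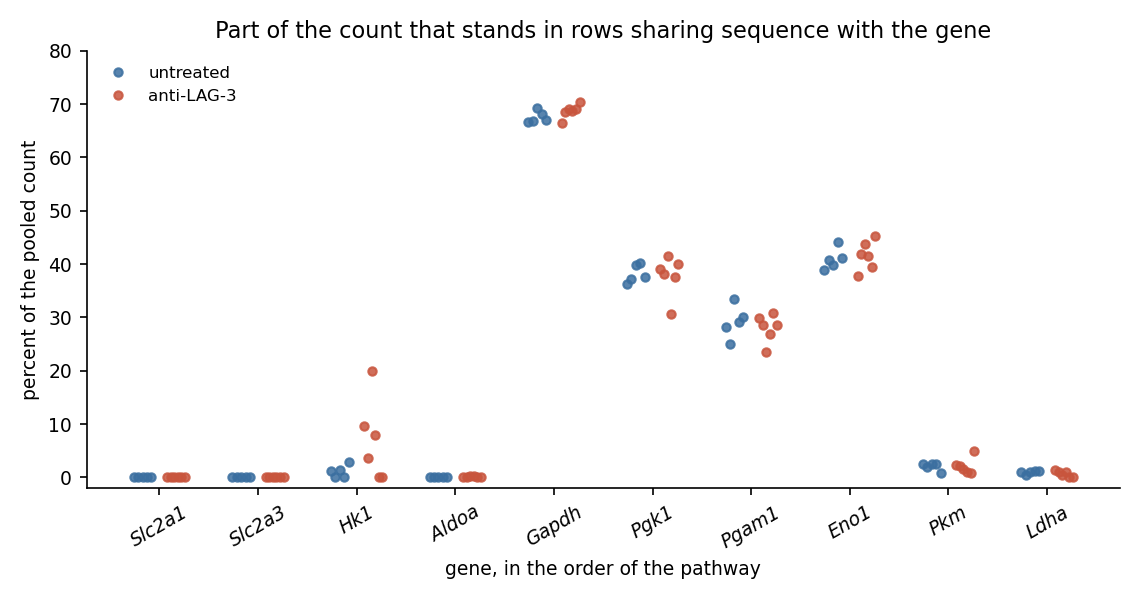
The vertical axis gives, for each gene, the percent of the pooled count that stands in rows sharing at least 1% of its 50-base stretches; a point is a library, blue for untreated and red for anti-LAG-3 mice. Gapdh lies between 66.5% and 70.4% in every library, Eno1 between 37.7% and 45.2%, and Slc2a1 and Aldoa at or near 0%; Slc2a3 has no row past the 1% limit.

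The genes were transcribed at very different levels. Per kilobase of the longest annotated coding sequence, and from the own rows alone, the level in untreated mice was 1216 ± 164 CPM per kb (SD, n = 5) for Gapdh, 735 ± 123 for Aldoa, 640 ± 100.9 for Ldha, 430 ± 70.5 for Eno1, 356 ± 49.0 for Pkm, 345 ± 61.8 for Pgam1 and 186 ± 33.0 for Pgk1. The transport and trapping steps stood far lower, at 31.6 ± 12.3 CPM per kb for Slc2a3, 20.3 ± 3.08 for Hk1 and 14.9 ± 4.46 for Slc2a1. Over all 11 libraries the levels of Aldoa and Ldha overlapped, as did those of Eno1 and Pkm, Pkm and Pgam1, Slc2a3 and Hk1, and Hk1 and Slc2a1, whereas Gapdh lay above Aldoa, Ldha above Eno1, Pgam1 above Pgk1 and Pgk1 above Slc2a3 in every library. This scale takes reads as spread over the whole coding sequence, which was not tested. By the study's methods a barcode was added at an end of the cDNA before fragmentation, so even coverage cannot be taken as given. With sharing rows added, the mean over the 11 libraries rose to 3827 CPM per kb for Gapdh and 742 for Eno1, which then stood beside Aldoa at 728. For Pgam1 it rose from 339 to 475, above the 371 of Pkm, and Pgk1, at 187 from its own row, rose too but stayed below Pkm.

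The comparison of anti-LAG-3 with untreated mice asks whether LAG-3 blockade moved the expression of glycolysis genes in precursor exhausted cells. Of the 10 genes, all of which passed the filter on low counts, 0 had an adjusted p under 0.05 (edgeR, quasi-likelihood test, Benjamini-Hochberg adjustment), and over all 6949 genes tested the percentage was 0% as well. At an unadjusted p under 0.05 there were 0 of the 10 genes, neither higher nor lower, and 3.73% of all genes tested (1.74% higher and 1.99% lower). The log2 fold change of treated over untreated mice (log2FC) was above 0 in 5 genes and below 0 in 5, where 48.9% of all genes tested were lower, and its median was -0.0012 against 0.0045 over all genes tested. The groups did not overlap in CPM in 0 of the 10 genes and in 0.475% of all genes tested. The cells of a mouse were pooled before sequencing, so fewer cells with a transcript and less transcript per cell cannot be told apart.

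**Figure D3:**
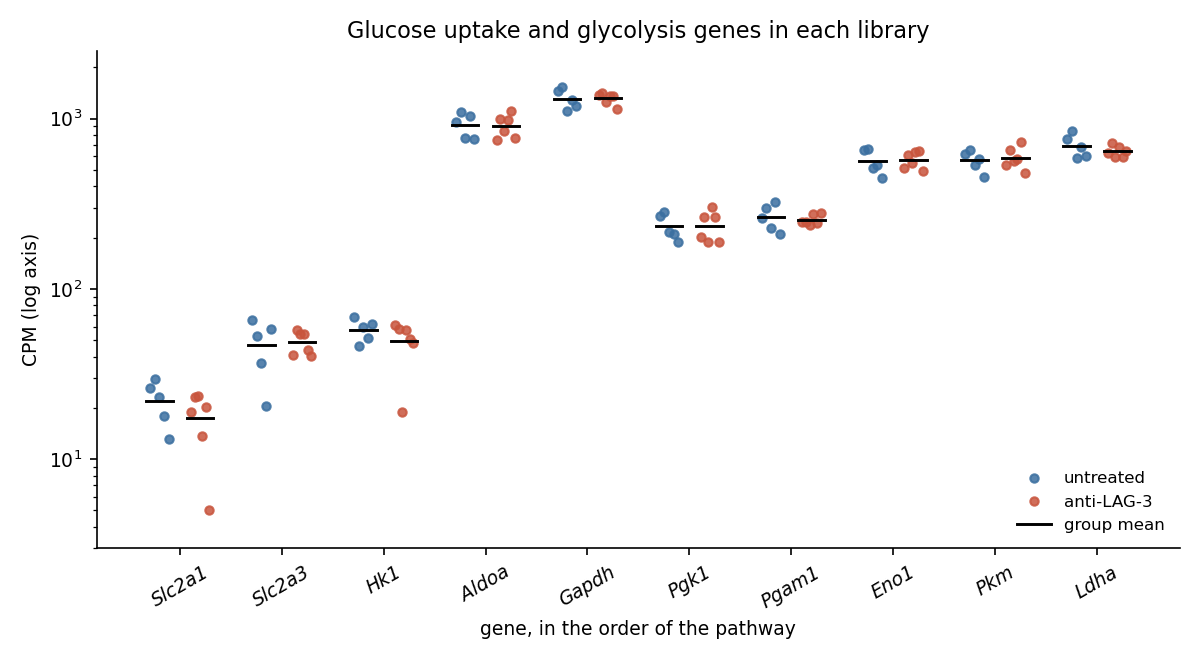
The vertical axis gives CPM on a log scale and the horizontal axis the 10 genes in the order of the pathway; each point is a library, blue for untreated (n = 5) and red for anti-LAG-3 mice (n = 6), and the black lines are group means. The groups overlap for every gene, and the single low red points are Hk1 at 18.9 CPM and Slc2a1 at 5.04 CPM.

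Uptake of glucose was followed through GLUT1 and GLUT3. Slc2a1, which encodes GLUT1 and lies on chromosome 4 of GRCm38 from 119108711 to 119137983, had 26.3, 29.7, 23.1, 17.9 and 13.1 CPM in untreated libraries 1 to 5, and a lowest value of 5.04, a median of 19.6 and a highest value of 23.6 CPM in the anti-LAG-3 mice. The lowest value, in library 11, rests on 2 counts, and the other 5 treated mice lay within the untreated range. The log2FC was -0.28 (SE 0.28, 95% interval -0.84 to 0.29), and without library 11 it was -0.17. Slc2a3, which encodes the high-affinity transporter GLUT3 (chromosome 6, 122727809 to 122801640), had 65.7, 52.7, 36.5, 20.5 and 58.1 CPM in untreated libraries 1 to 5 and 40.3 to 57.1 CPM, median 49.1, after anti-LAG-3. All treated values fell inside the untreated range, and the log2FC was 0.039 (SE 0.21, 95% interval -0.39 to 0.46). On the log2 scale the ratio of Slc2a3 to Slc2a1 was 0.95 ± 0.68 (SD, n = 5) in untreated and 1.44 ± 0.59 (SD, n = 6) in treated mice. The highest treated ratio, 2.49, was in library 11 with its 2 counts of Slc2a1, and the next was 1.81.

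Hk1 encodes the hexokinase that is bound to mitochondria and present in most cells. It lies on chromosome 10 from 62268855 to 62379908 and had 68.2, 46.1, 59.6, 51.2 and 61.9 CPM in untreated libraries 1 to 5. The anti-LAG-3 mice had between 18.9 and 61.7 CPM with a median of 53.9. Only library 8, with 8 counts, stood below all untreated mice, and the other 5 treated mice had 47.9 to 61.7 CPM. The log2FC of Hk1 was -0.19 (SE 0.19, 95% interval -0.58 to 0.19) and fell in size to -0.077 without library 8. With the reads of Hk1os added it was -0.12 (SE 0.18), and Hk1os held 1.12% ± 1.22 (SD, n = 5) of the pair's counts in untreated and 6.89% ± 7.57 (SD, n = 6) in treated mice. The inducible isoform Hk2 stood at 7.20 ± 2.77 CPM per kb (SD, n = 5) in untreated mice, below the 20.3 of Hk1, and had 19.8 ± 7.62 CPM (SD, n = 5) against 19.3 ± 6.99 CPM (SD, n = 6). Per mouse, the log2 ratio of Hk1 to Hk2 was 1.51 ± 0.50 (SD, n = 5) in untreated and 1.204 ± 0.95 (SD, n = 6) after treatment (two-sided exact permutation test, p = 0.632, adjusted p = 0.632 over 2 ratios tested, where the smallest possible p is 0.00433). Without library 8 the difference of -0.30 turned to 0.082, and within the 6 libraries of primer barcode 9 it was 0.27.

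By their own rows, the steps that split the hexose and reduce NAD+ had the most abundant transcripts, while Eno1 with its sharing rows reached 947 ± 145 CPM (SD, n = 5) in untreated mice, a level like that of Aldoa. Aldoa, the aldolase gene of most tissues (chromosome 7, 126795234 to 126800751), had 949, 1094, 764, 1040 and 760 CPM in untreated libraries 1 to 5, and from 748 to 1102 CPM with a median of 912 after anti-LAG-3. The highest and the lowest of the 11 values were both in treated mice. The log2FC of Aldoa was -0.017 (SE 0.10, 95% interval -0.22 to 0.19). Gapdh, on chromosome 6 from 125161715 to 125166467, had 1453, 1526, 1110, 1281 and 1180 CPM in untreated libraries 1 to 5 and 1145 to 1412 CPM, median 1359, in the treated mice, which all fell inside the untreated range. Its log2FC was 0.014 (SE 0.077, 95% interval -0.14 to 0.17), the narrowest interval of the 10. With the 114 sharing rows added, Gapdh had 4027 ± 448 CPM (SD, n = 5) against 4200 ± 237 CPM (SD, n = 6), a log2FC of 0.063 (SE 0.062), and adding these rows moved the difference by less than its SE.

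The middle enzymes pass the phosphate groups on. Pgk1, on chromosome X from 106187100 to 106203699, had 269, 283, 214, 210 and 188 CPM in untreated libraries 1 to 5 and 189 to 300.4 CPM, median 232, in anti-LAG-3 mice, of which library 9 stood above all untreated mice. Its log2FC was 0.027 (SE 0.13), and with Pgk1-rs7, Gm5537 and Pgk1-ps1 added it was 0.0086. Pgam1, on chromosome 19 from 41911923 to 41918660, had 259, 297, 226, 323 and 210.1 CPM in untreated libraries 1 to 5 and stood closer together in the treated mice, at 238 to 277 CPM with a median of 247. Its SD was 47.1 CPM in the untreated and 17.1 CPM in the anti-LAG-3 group, and the log2FC was -0.019 (SE 0.11), or -0.046 with its copies added. Eno1, on chromosome 4 from 150236721 to 150248879, had 650, 659, 514, 530.2 and 446 CPM in untreated libraries 1 to 5 and 489 to 646 CPM, median 579, after anti-LAG-3. The treated values of Pgam1 and Eno1 all lay inside the untreated range. For Eno1 the log2FC was 0.037 (SE 0.097), and 0.055 with Eno1b, Gm4735 and Gm5855 added.

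Pyruvate and lactate form at the end of the chain. Pkm, which encodes the muscle-type pyruvate kinases M1 and M2 that a gene-level count cannot separate, lies on chromosome 9 from 59656368 to 59679375. It had 619, 656, 531, 576 and 456 CPM in untreated libraries 1 to 5 and 479 to 727 CPM, median 571, after anti-LAG-3. Library 10 of the treated group stood above all untreated mice. The log2FC of Pkm was 0.055 (SE 0.097, 95% interval -0.15 to 0.26). Ldha, which encodes the lactate dehydrogenase subunit that favors lactate (chromosome 7, 46841475 to 46855627), had 755, 847, 586, 676 and 602 CPM in untreated libraries 1 to 5 and 592 to 717 CPM, median 635, after anti-LAG-3. The treated mice lay inside the untreated range, and the log2FC was -0.088 (SE 0.088, 95% interval -0.27 to 0.091). Ldha was the only gene of the 10 whose difference in mean CPM, 693 ± 109 (SD, n = 5) against 643 ± 49.2 (SD, n = 6), was not below the SD of both groups. The sister subunit Ldhb had 1 to 12 counts per library and did not pass the filter. The log2 ratio of Ldha to Ldhb was 6.29 ± 0.76 (SD, n = 5) in untreated and 5.66 ± 0.58 (SD, n = 6) in treated mice. This difference of -0.63 had p = 0.156 (two-sided exact permutation test, adjusted p = 0.312 over 2 ratios tested), with 5 of 6 treated mice below the untreated mean. Within the 6 libraries of primer barcode 9 that difference was 0.15.

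The adjusted p of every one of the 10 genes was 0.999 (edgeR's quasi-likelihood test). What the libraries could show differed between the genes. In the 7 genes from Aldoa to Ldha, each with at least 70 counts in every library, the 95% intervals lay between 0.830-fold (Ldha) and 1.22-fold (Pgk1), whereas that of Slc2a1 ran from 0.557-fold to 1.22-fold and that of Slc2a3 from 0.766-fold to 1.38-fold. Changes inside these bounds could not be told from no change with these libraries. The spread within groups was 10.6% to 19.2% of the mean in the 7 genes, 1.55 to 3.60 times what counting alone gives, and 24.7% to 35.1% in the other 3, 0.983 to 1.32 times counting error.

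**Figure D4:**
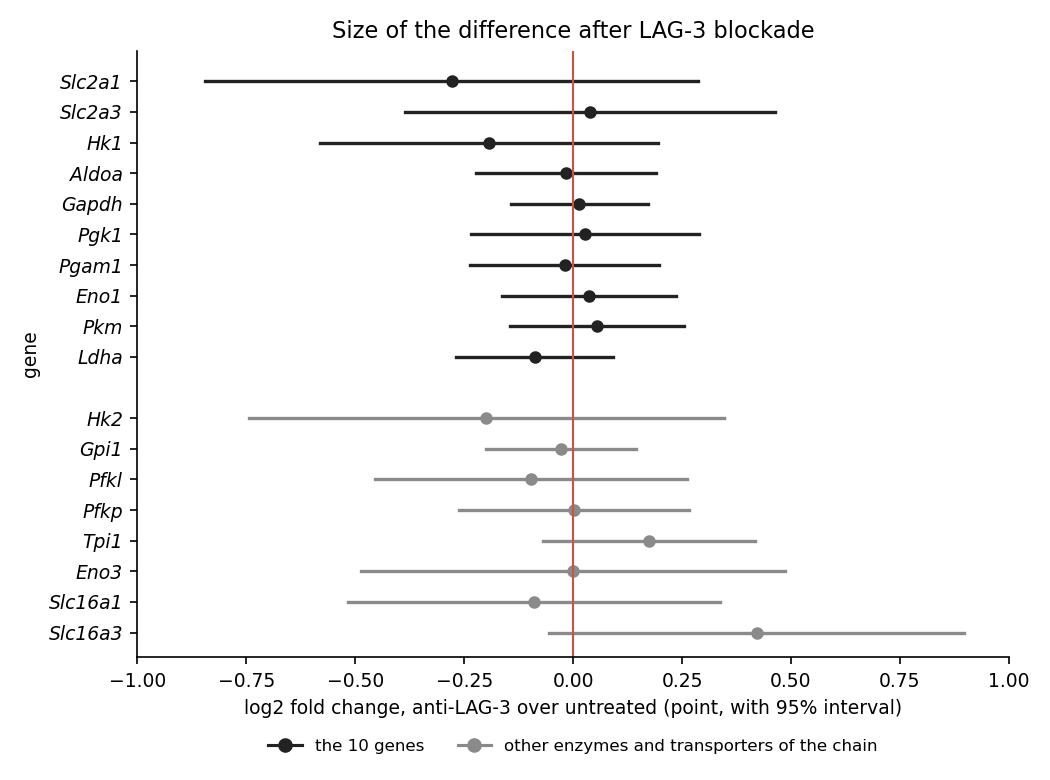
Points are log2 fold changes (log2FC) of anti-LAG-3 over untreated mice and lines their 95% intervals from edgeR's quasi-likelihood fit, with the 10 genes in black and other enzymes and transporters of the chain that passed the filter in grey; the red line marks no difference. The intervals of all genes drawn cross 0, and Slc2a1 has the widest of the black ones, from -0.84 to 0.29.

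The 7 well counted genes varied together from mouse to mouse. With group means removed, Pearson's r between the log2 CPM of a pair had a median of 0.72 over the 21 pairs of these genes and was above 0 in 21 of 21 pairs, from 0.31 for Pgam1 and Pkm to 0.92 for Pgk1 and Eno1 (n = 11 libraries, given as a description). All points of a pair share the library, its depth and its scaling. All 7 genes stood above their group mean in library 2 and below it in libraries 3, 5 and 8. Pairs that include Slc2a1, Slc2a3 or Hk1 ran from -0.47 (Slc2a3 and Pgam1) to 0.72 (Slc2a1 and Pkm). The r of a single gene with the mean of the other 9 was 0.43 for Slc2a1, 0.22 for Slc2a3 and 0.018 for Hk1. Among the 7 it was lowest for Pgam1 (0.13) and highest for Eno1 (0.91). The median r with the mean of the 10 was -0.047 over the 1776 other genes with a mean of at least 100 CPM.

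**Figure D5:**
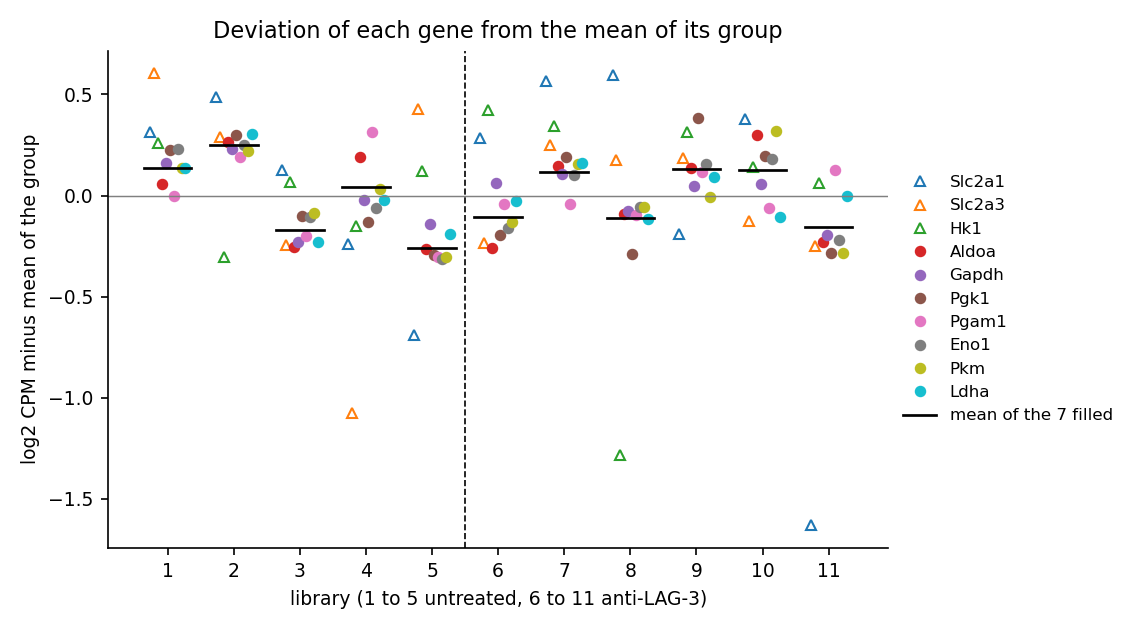
The vertical axis gives log2 CPM minus the mean of the group for each gene in each library; filled circles are the 7 genes with at least 70 counts in every library, open triangles the other 3, and black lines the mean of the 7. That mean runs from -0.26 in library 5 to 0.25 in library 2, and the open triangles scatter more widely, down to Slc2a1 in library 11 and Hk1 in library 8.

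Summed over the 10 genes, untreated mice had 4674 ± 657 CPM (SD, n = 5) and anti-LAG-3 mice 4628 ± 428 CPM (SD, n = 6), a difference of -46.2 CPM that is well below either SD. With the sharing rows added, an alternative chosen after seeing the data, the untreated sum was 8046 ± 1006 CPM (SD, n = 5) and the treated sum 8183 ± 618 CPM (SD, n = 6), and the difference turned to 136 CPM, again below either SD. The single sums were 5115, 5491, 4065, 4725 and 3975 CPM in untreated libraries 1 to 5 and from 4077 to 5056 CPM in the treated mice, so the groups overlapped. The libraries carry 1 of 3 primer barcodes in their names, and depth differed between them. The 6 libraries of barcode 9, 3 of each group, had a median of 1141450 counts, and the 4 of barcode 8, 1 untreated and 3 anti-LAG-3, a median of 411796.5. The single library of barcode 10, from an untreated mouse, had 317449. Within barcode 9 the sum was 390.2 CPM higher in the anti-LAG-3 mice, and the 7 genes from Aldoa to Ldha had log2FC values of 0.056 (Ldha) to 0.16 (Pgk1), with unadjusted p-values from edgeR's quasi-likelihood test of 0.127 (Gapdh) to 0.578 (Ldha) and adjusted p-values of 0.986 and 0.987 for those 2 genes. The 0.127 of Gapdh is the smallest of the 10 genes within that barcode. The names also carry 1 of 8 codes that begin with ExT, whose meaning the labels do not give, and 1 of these codes is shared by both groups. Under that code the sum was 5056 CPM in anti-LAG-3 library 10, between the 5491 of untreated library 2 and the 4065 of untreated library 3.

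By the measure used for the pairs, the genes with a mean of at least 100 CPM whose pattern was most like the mean of the 10 were Gm12033 (r = 0.85), Serpine2 (0.84), Rbbp4 (0.83), Pcbp2 (0.82) and Ndufb9 (0.81), over 1776 genes ranked and 11 libraries. Gm12033 is itself a Gapdh retrocopy and shares sequence with a gene of the 10.

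The rest of the pathway was read from lists of the chain, its regulators and the routes that leave it. Of the 61 genes listed, 59 were in the table and 34 passed the filter; 0 of the 34 had an adjusted p under 0.05 and 2 had an unadjusted p under 0.05, with 13 higher, 21 lower and a median log2FC of -0.033. Of the enzymes that complete the chain, Gpi1, which isomerizes glucose-6-phosphate, had 389 ± 32.7 CPM (SD, n = 5) against 381 ± 24.1 CPM (SD, n = 6), a log2FC of -0.027 (SE 0.084). The phosphofructokinase genes Pfkl and Pfkp had log2FC values of -0.096 (SE 0.17) and 0.0013 (SE 0.13), and Pfkm was below the filter. Tpi1, triosephosphate isomerase, had a log2FC of 0.17 (SE 0.12).

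Of the isoform partners, Hk2 and Eno3 were tested, with log2FC values of -0.20 (SE 0.27) and 0.00044 (SE 0.24), while Hk3, Aldoc, Pgam2, Eno2, Ldhb, Slc2a4, Slc2a6 and Slc2a8 fell below the filter, with Slc2a4, the insulin-responsive GLUT4, at 0 counts in all 11 libraries. Pklr was not analysed here. The lactate exporter gene Slc16a3, which encodes MCT4, had 27.9 ± 7.16 CPM (SD, n = 5) against 36.04 ± 11.9 CPM (SD, n = 6), a log2FC of 0.42 (SE 0.23, edgeR, unadjusted p = 0.0806), and Slc16a1, which encodes MCT1, a log2FC of -0.089 (SE 0.21).

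Of the regulators, Hif1a, the oxygen-regulated subunit of HIF-1, had 556 ± 50.9 CPM (SD, n = 5) without and 505 ± 63.3 CPM (SD, n = 6) with treatment, a log2FC of -0.15 (SE 0.090). Myc had 42.9 ± 11.0 CPM (SD, n = 5) against 60.8 ± 12.5 CPM (SD, n = 6), a log2FC of 0.51 (SE 0.19, edgeR quasi-likelihood test, unadjusted p = 0.0137, adjusted p = 0.999), with overlapping groups. Dlat, the acetyltransferase subunit of pyruvate dehydrogenase, had the smallest p of the lists, with 48.4 ± 11.4 CPM (SD, n = 5) against 33.2 ± 7.37 CPM (SD, n = 6), a log2FC of -0.65 (SE 0.20, edgeR quasi-likelihood test, unadjusted p = 0.00278, adjusted p = 0.999). Of the 8 genes tested in that list, on the entry of pyruvate into mitochondria, 7 were lower and 1 was higher, with a median log2FC of -0.090. Higd1a, a hypoxia-inducible mitochondrial gene, came next by p after Dlat and Myc, with a log2FC of -0.26 (SE 0.13, edgeR, unadjusted p = 0.0564). The pentose phosphate branch had 3 genes higher and 3 lower of 6 tested, and the HIF-1 targets outside glycolysis 2 higher and 5 lower of 7 tested. The 2 genes of 34 with an unadjusted p under 0.05 stand beside 3.73% of all genes tested.

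Promoter sequence was set beside the shared pattern of the genes. The motif ACGTG was read on both strands (its other strand reads CACGT). It is a form of the core of the site known for HIF-1, and it overlaps CACGTG, the E-box known for MYC. The other form of that core, GCGTG, was not counted. ACGTG was present in 16.6% of the 32851 windows of 250 bases before a RefSeq transcription start in GRCm38.p6, and in any window of 18.5% of 27025 genes. Of the 10 genes, 9 matched a window and 6 held the motif in some window (Slc2a1, Aldoa, Pgk1, Pgam1, Pkm, Ldha). These 9 genes had 16 windows, of which 7 held it. The windows of Hk1, Gapdh and Eno1 did not hold these letters, though each of these genes has a window with GCGTG. Ldha has a further window, at chr7:46846832-46847081, with no match to ACGTG. The windows of Ldha and Pgk1 that held it, at 3 and 2 separate places, are shown with the motif in capitals. They lie at chr7:46845554-46845803 and chrX:106186850-106187099, both on the + strand.
Ldha: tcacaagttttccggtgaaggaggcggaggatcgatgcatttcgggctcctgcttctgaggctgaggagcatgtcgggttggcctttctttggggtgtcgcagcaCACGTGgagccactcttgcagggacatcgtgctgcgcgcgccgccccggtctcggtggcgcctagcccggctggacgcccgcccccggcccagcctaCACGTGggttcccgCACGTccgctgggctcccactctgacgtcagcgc
Pgk1: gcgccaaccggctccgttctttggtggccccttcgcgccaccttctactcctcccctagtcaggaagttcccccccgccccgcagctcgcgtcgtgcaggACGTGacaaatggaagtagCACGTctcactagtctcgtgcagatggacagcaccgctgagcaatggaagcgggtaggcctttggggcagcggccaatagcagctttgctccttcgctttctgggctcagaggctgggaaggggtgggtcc
Among the 6 genes with ACGTG in a window, the r with the mean of the other 9 genes ran from 0.13 (Pgam1) to 0.90 (Pgk1), with 0.43 for Slc2a1. Among Hk1, Gapdh and Eno1 it ran from 0.018 (Hk1) to 0.91 (Eno1). The match is a description of the letters and says nothing of binding.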

How the data were processed

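RNA of sorted cells from 5 untreated and 6 anti-LAG-3 mice was sequenced, with a library per mouse. Per the study's methods, reads were cleaned by Cutadapt and aligned by Bowtie2 to GRCm38 transcripts, and the authors deposited 1 raw count per gene symbol and library. The paper and the processing notes give different versions of these tools (cutadapt 4.1 and Bowtie2 2.4.5 in the notes). The handling of reads with several matches and of strand is not given in the sources used here. Groups and library numbers came from the labels, and all 11 columns were matched by title. Library numbers are not shared between groups. The titles also carry a token read here as the primer barcode and a code that begins with ExT, of unstated meaning, and only 1 such code holds both groups (untreated libraries 2 and 3, anti-LAG-3 library 10). A fit with this code as covariate was added after seeing the data.

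Low rows of the whole table were removed by filterByExpr (minimum 10 counts, here 17.7 CPM, in 5 libraries, total of 15), and the rest were normalized by TMM and tested in edgeR 4.0.16 with the quasi-likelihood test, treatment as the only term and Benjamini-Hochberg adjustment over all genes at 0.05. A standard error (SE) is |log2FC| over the root of the F statistic. The likelihood ratio test of the study and DESeq2 1.42.0 were alternatives. Ratios between genes used a prior count of 2 on the log2 scale. Sequences and distinct 50-base stretches came from GENCODE M21 transcripts of GRCm38, another release than the one mapped to; the 1% limit for sharing rows was set after seeing the data. Where 2 GENCODE genes carry the symbol Aldoa, the one at the RefSeq position was used. Promoter windows are RefSeq's.

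Named genes are the 10, their isoform partners, the enzymes and exporters of the chain that passed the filter, the regulators Hif1a and Myc, the 3 smallest p-values of the lists, the 5 genes most alike in pattern and up to 3 sharing rows with the most counts per gene. Some listed genes are not reported here. The genes, lists and tests were chosen with earlier results of these data known. The fit was tested on simulated data. Library totals were 313524 to 1901374 counts. Reads carried no molecular identifier, so floors cover counting error only. Other experiments of the study were not analysed here.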

Additional observations from a re-analysis of the deposited data

Results flagged for a closer look

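Of 28 sets of values examined, 10 genes and 4 sums or ratios in each group, 3 had a sample whose gap to its nearest neighbour was a large part of the group's range by Dixon's test at the 95% level, where chance would give about 1.4. The sums and ratios are built from the same genes, so the 3 are not separate events. Hk1 in anti-LAG-3 library 8 was 4.43 on the log2 CPM scale, or 18.9 CPM from 8 counts, below the 47.9 to 61.7 CPM of the other 5 treated libraries. The same library had a log2 ratio of Hk1 to Hk2 of -0.73, which rests on the same 8 counts of Hk1, where the other treated libraries had 1.49 to 1.72. In the untreated group, library 2 had a log2 ratio of Hk1 to Hk2 of 2.40, where the others had 1.22 to 1.36, and Hk2 had 2 to 32 counts per library over the series.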

How the results depend on the processing

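In all alternatives, 0 of the 10 genes and 0 of the pathway genes tested had an adjusted p under 0.05, and over 189 fits of a gene of the 10 the smallest unadjusted p was 0.0718 (Pkm with the ExT code of the library titles as covariate). Over all genes there were 0 calls, with 259 at an unadjusted p under 0.05 and 163 by DESeq2, but 3 calls among 24024 genes with no filter, and 0 to 2 when each library was left out in turn (2 without anti-LAG-3 library 7, where Slc2a1 did not pass the filter). The fit with that code, chosen after seeing the data, gave 16 calls over all genes on 2 residual degrees of freedom, with log2 fold changes of 0.32 for Pkm and 0.28 for Aldoa, which turned the sign of Aldoa. Slc2a1 and Hk1 stayed below 0 in each alternative that gave a value, while the sign of other differences was not stable. It turned with primer barcode 9 alone in Slc2a3 (-0.052), Aldoa (0.13), Pgam1 (0.13), Ldha (0.056), the ratio of Ldha to Ldhb (0.15) and that of Hk1 to Hk2 (0.27, exact permutation p = 0.1, the smallest that 3 against 3 can give), and with the barcode as a covariate in Aldoa (0.027). Leaving out 1 library in turn gave log2 fold changes of -0.092 to 0.26 for Slc2a3, -0.087 to 0.041 for Aldoa, -0.050 to 0.065 for Gapdh, -0.063 to 0.11 for Pgk1, -0.084 to 0.058 for Pgam1, -0.033 to 0.11 for Eno1 and -0.013 to 0.098 for Pkm, and -0.41 to 0.082 for the ratio of Hk1 to Hk2, each range holding both signs. The ranges were -0.40 to -0.17 for Slc2a1, -0.27 to -0.077 for Hk1, -0.16 to -0.023 for Ldha and -0.81 to -0.41 for the ratio of Ldha to Ldhb. The difference in the sum lay between -221 and 158 CPM when each library was left out in turn, and was 390.2 CPM with primer barcode 9 alone and 136 CPM with sharing rows added. With genes of at least 300 CPM, 1 of the 5 genes most alike in pattern was the same (Pcbp2).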
